A study of Rattus norvegicus with 30 samples.

Results

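Expression of 10 genes of macrophages and of the colony-stimulating factor 1 (CSF1) axis was followed in rat sciatic nerve (SN) and dorsal root ganglia (DRG) after resection of the sciatic nerve. The genes were Csf1, Csf1r, Cd68, Aif1, Itgam, Cd14, Cd163, Mrc1, Arg1 and Fcgr3a. They were found by the gene names that the scanner files give to the probes of the array. These 10 names stand among 35287 different names on the array, which carries 16 probes for them among 41012 in all, 1 probe for 5 of the genes and several for the other 5. Adult male Sprague-Dawley rats, with no transgene or drug treatment named in the labels, had a 1 cm segment of the left sciatic nerve resected under anaesthesia, and the proximal nerve and the L4-6 DRG were collected on days 0, 1, 4, 7 and 14. The 0 d groups served as controls. Each tissue and day had 3 arrays, 30 arrays in all, and neither the labels nor the methods state which rats an array holds or how many, so that p-values measure the spread between arrays. An array reads the whole tissue, in which fewer cells of a type and less RNA per cell cannot be told apart.

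CSF1 is a secreted growth factor that binds the receptor tyrosine kinase CSF1R on monocytes, macrophages and microglia and keeps these cells alive and dividing. After axons of peripheral nerves are cut, resident macrophages and monocytes from the blood clear myelin and axon debris in the nerve, and macrophages around the cell bodies in the ganglia also respond. CD68 is a lysosomal membrane protein of phagocytes, AIF1 (also named IBA1) is an actin-binding protein of macrophages and microglia, ITGAM is the CD11b subunit of complement receptor 3 and is shared with neutrophils, and CD14 is a co-receptor for bacterial lipopolysaccharide. FCGR3A is a low-affinity receptor for immunoglobulin G that natural killer cells also carry. CD163, the receptor for haemoglobin-haptoglobin complexes, and MRC1, the mannose receptor (CD206), are surface proteins of many tissue-resident macrophages. Arginase 1, encoded by Arg1, splits arginine into ornithine and urea and is made by some macrophages and also by other cells, among them injured neurons.

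To show the regulatory sequence in front of 4 members that rose in the nerve, on different days, the 250 bases before the annotated start were taken from the RefSeq table (build GRCr8), which held an entry for 7 of the 10 members. The stretches shown are Cd68 from chr10:54882442-54882691 on the minus strand, Itgam from chr1:192089342-192089591 on the plus strand, Fcgr3a from chr13:85782386-85782635 on the plus strand and Cd163 from chr4:158770524-158770773 on the plus strand, each 5′ to 3′ on the strand of the gene. Capitals mark GAGGAA, the core of sites for the myeloid transcription factor PU.1, and its reverse complement on the other strand.
Cd68: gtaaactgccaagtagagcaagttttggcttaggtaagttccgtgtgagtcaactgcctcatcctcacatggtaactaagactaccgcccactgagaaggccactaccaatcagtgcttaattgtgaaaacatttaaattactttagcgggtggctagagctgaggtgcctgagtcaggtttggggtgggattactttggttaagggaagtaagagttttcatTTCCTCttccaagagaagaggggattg
Itgam: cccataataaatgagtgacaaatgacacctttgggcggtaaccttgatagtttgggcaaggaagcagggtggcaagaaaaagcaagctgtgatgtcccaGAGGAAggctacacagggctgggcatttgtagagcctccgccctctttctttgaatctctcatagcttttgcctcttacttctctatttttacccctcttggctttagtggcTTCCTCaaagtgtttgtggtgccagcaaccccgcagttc
Fcgr3a: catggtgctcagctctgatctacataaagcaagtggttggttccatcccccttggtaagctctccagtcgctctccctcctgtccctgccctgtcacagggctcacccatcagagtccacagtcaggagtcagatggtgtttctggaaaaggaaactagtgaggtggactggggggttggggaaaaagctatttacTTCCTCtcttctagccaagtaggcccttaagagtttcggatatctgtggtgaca
Cd163: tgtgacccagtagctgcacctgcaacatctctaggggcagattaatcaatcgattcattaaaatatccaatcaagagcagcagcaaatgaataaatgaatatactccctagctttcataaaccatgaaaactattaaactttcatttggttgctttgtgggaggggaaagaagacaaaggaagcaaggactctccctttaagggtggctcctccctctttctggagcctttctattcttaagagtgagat
The motif GAGGAA was found on either strand in 6 of the 7 promoters, with 2 matches each in Csf1r, Itgam, Cd14 and Mrc1 and 1 each in Cd68 and Fcgr3a, and the Cd163 stretch held none. Of all 33469 promoters cut to the same 250 bases, 23.3% held it. TGANTCA, the AP-1 motif, was found in 1 of the 7, Cd68, with 2 matches, against 6.34% of all promoters. TTNNGNAA, a motif like that of C/EBP factors, was found in 7 of the 7, against 37.2% of all promoters. No overlap between the motifs was removed. These matches describe letters in the windows and were not tested.

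The values below are normalized signals, the log2 of an array's processed intensity minus the 75th percentile of that array, so that 1 unit is a 2-fold difference and 0 is the 75th percentile. A gene is given by its probe with the highest mean normalized signal, and levels of different genes were not compared with each other. All 10 of these probes were well above background on all 30 arrays, and no member was saturated. Between 30227 and 35165 probes were well above background per SN array, and between 26941 and 35573 per DRG array. The 0 d arrays had the fewest, with 31317, 30227 and 30414 in SN against at least 33079 on every later SN array. In DRG they had 32602, 26941 and 28560 against at least 33690 on every later array. The part of this in the comparisons with 0 d was not tested. The DRG 0 d array of replicate 3 had the highest signal of its group for 9 of the 10 members. Replicate 3 of SN 4 d and that of DRG 14 d each had it for 8. Calls of members that change without the DRG 0 d array of replicate 3 are given beside their results. All 0 d arrays were scanned on a date of their own and on slides that held no other day, so that in comparisons with 0 d within a tissue the scan and the day cannot be told apart. Every day had a slide with arrays of both tissues. On these slides 1 tissue had a single array, DRG replicate 1 on days 0, 1 and 7 and SN replicate 3 on days 4 and 14. With the slide as a fixed block, differences between the tissues rest on these single arrays for that tissue.

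In the uninjured state most members were higher in SN than in DRG. On day 0 8 of the 10 members were called higher in SN and limma called none lower, also at an unadjusted p under 0.05, where a call needs more than a 2-fold difference and an adjusted p below 0.05. Of the 33806 probes tested in both tissues 20% were called higher and 15.5% lower. The median difference over the members was 1.61 on the log2 scale, and that over all probes was 0.19. The largest was that of Cd14, with normalized signals of 2.02, 1.92 and 1.82 in SN and -0.53, -0.33 and 0.03 in DRG, a difference of 2.20 ± 0.18 (SE, limma, adjusted p = 1.71e-10). Cd163 was 2.16 ± 0.18 higher and Mrc1 2.12 ± 0.21 higher in SN. The ligand Csf1 was higher in SN by 1.69 ± 0.10 (adjusted p = 1.01e-12), and the groups did not overlap. The receptor Csf1r differed by 0.97 ± 0.14 (adjusted p = 2.63e-06), just under 2-fold, and by 1.08 without the DRG 0 d array of replicate 3 or 1.09 without the SN 0 d array of replicate 2, past 2-fold. Fcgr3a differed by 0.45 ± 0.44 (adjusted p = 0.375), with overlapping groups. With the slide as a fixed block, an alternative chosen after the data were seen, the difference was 1.07 for Csf1r and 1.37 for Fcgr3a. In these values the DRG level rests on the 0 d array of replicate 1 alone.

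**Figure D1:**
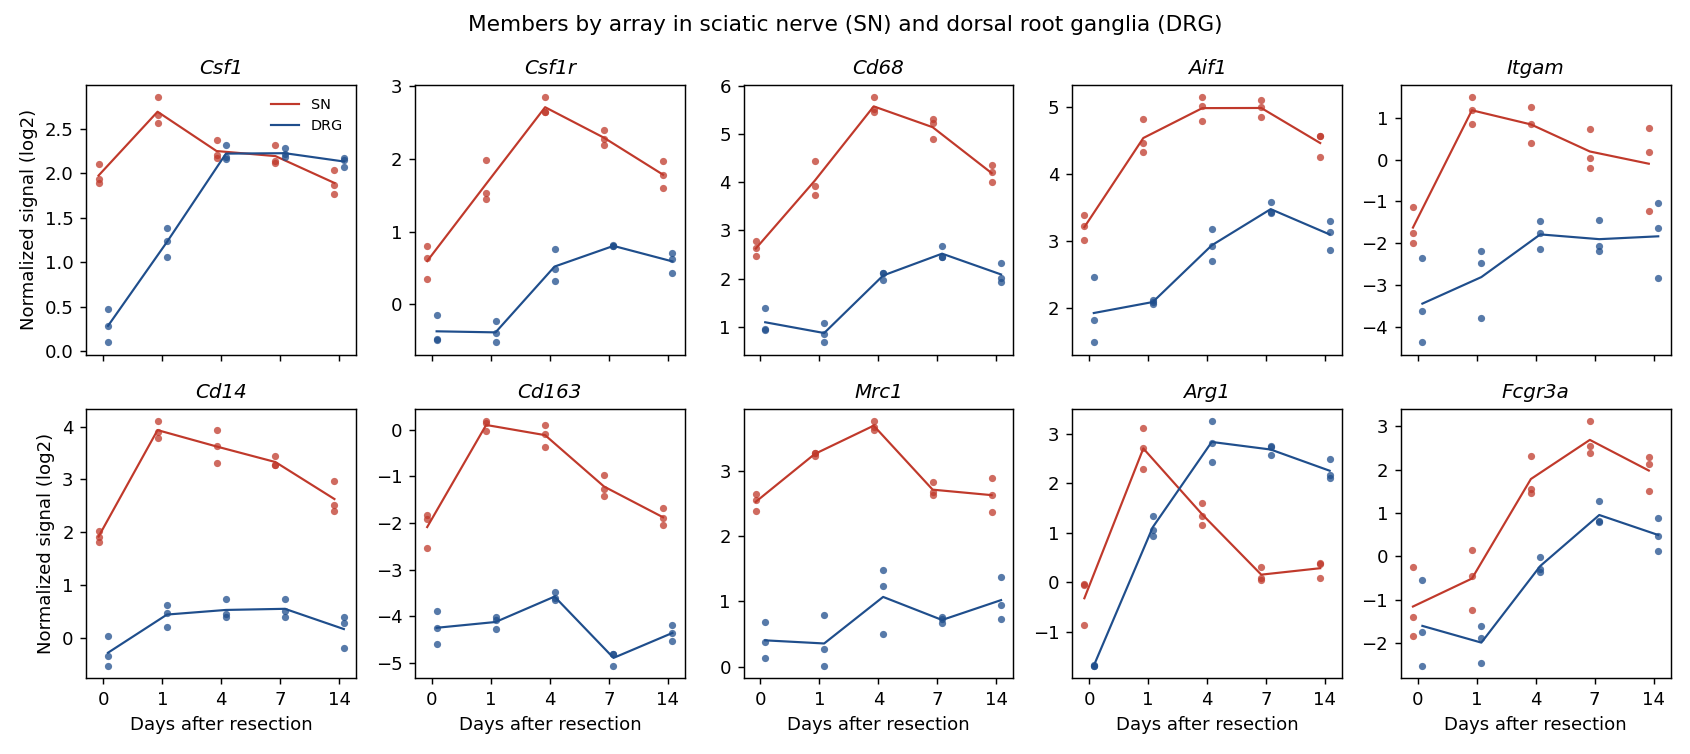
Normalized signal (log2, relative to the 75th percentile of the array) of the 10 members in each of the 30 arrays, SN in red and DRG in blue, against days after resection, with the days spaced evenly. Points are arrays, 3 per tissue and day, and lines join the means. Csf1 in DRG climbed from between 0.10 and 0.48 on day 0 to between 2.16 and 2.32 on day 4, where the SN arrays lay between 2.17 and 2.38.

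After resection more members were called higher in SN than in DRG on days 1 and 4. Csf1 was called on no day in SN, and Cd14, Cd163 and Mrc1 on no day in DRG. In SN 7 of the 10 members were called higher on day 1, 9 on day 4, 6 on day 7 and 5 on day 14, beside 18.6%, 15.9%, 18.1% and 14.3% of the 35163 probes tested (35162 on day 4). In DRG 1 member was called higher on day 1, 5 on day 4, 6 on day 7 and 5 on day 14, beside 7.43%, 6.04%, 6.58% and 13% of the 34977 probes tested. Limma called no member lower on any of these days in either tissue, and neither did the methods' t-test. Of the probes tested, 3.43%, 6.78%, 6.81% and 5.46% were called lower in SN and 0.169%, 0.506%, 0.326% and 0.46% in DRG. At an unadjusted p under 0.05 the only lower member was Cd163 in DRG on day 7. The median change over the members in SN was 1.37, 1.88, 1.55 and 0.95 on days 1, 4, 7 and 14, and in DRG it was 0.14, 0.99, 1.48 and 1.08. The medians over all probes lay between 0.11 and 0.16 in SN and between 0.08 and 0.14 in DRG, which is the shift that this scaling leaves in the probes as a whole. In DRG on day 4 the count rests on single arrays, falling to 2 without the 0 d array of replicate 1, without that of replicate 2 or without the 4 d array of replicate 3, and reaching 7 without the 0 d array of replicate 3, when Csf1r (1.00) and Cd68 (1.11) also passed. On day 14 it was 3 without the 0 d array of replicate 1 and 7 without that of replicate 3.

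**Figure D2:**
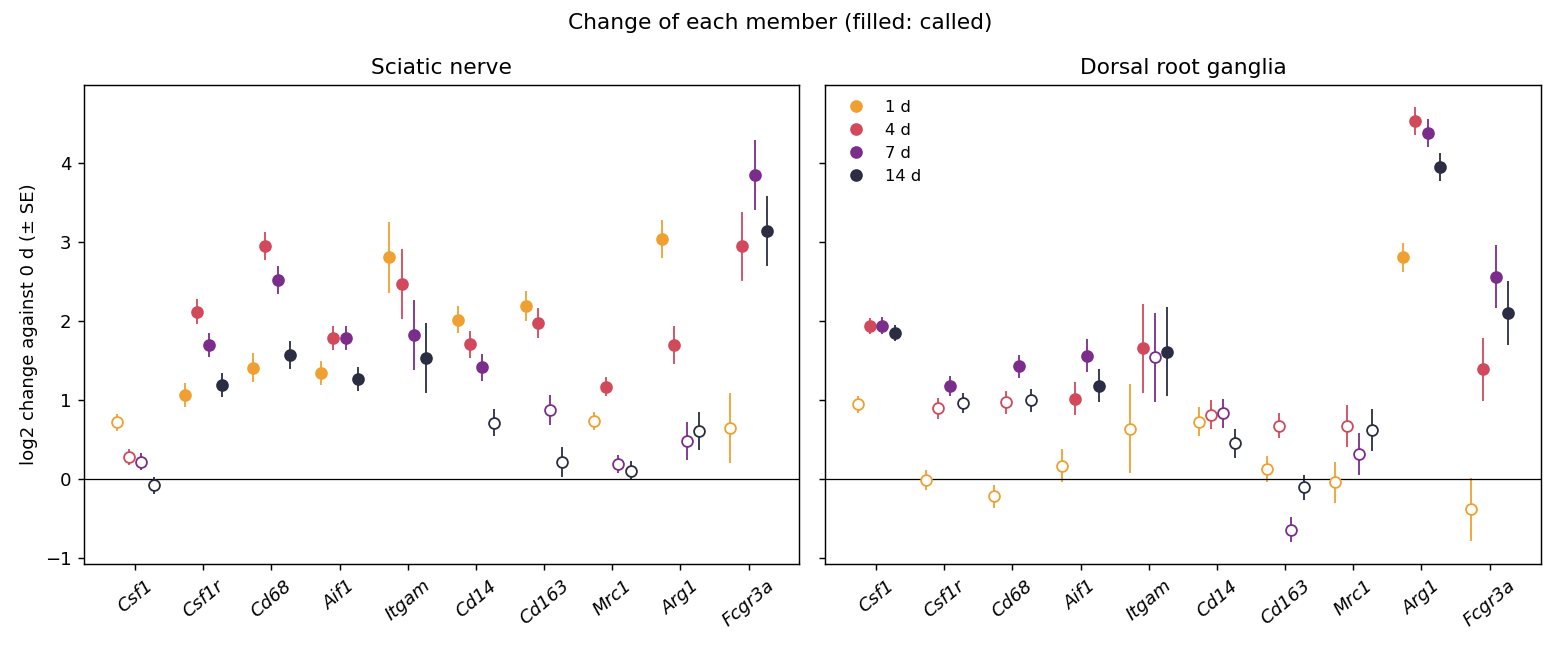
Log2 change against 0 d of each member on days 1, 4, 7 and 14 (colours) in SN (left) and DRG (right), with bars of 1 SE from limma. Filled points were called, and open points were not. Arg1 in DRG, at 4.53 ± 0.18 on day 4, had the largest change of the members.

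The ligand Csf1 changed by less than 2-fold in the nerve and rose past 2-fold in the ganglia from 4 d on. In SN its normalized signals were 1.89, 2.10 and 1.94 on day 0, 2.57, 2.65 and 2.85 on day 1, 2.21, 2.17 and 2.38 on day 4, 2.14, 2.32 and 2.12 on day 7, and 2.04, 1.77 and 1.87 on day 14. The 1 d arrays lay above those of every other day, and the 14 d arrays overlapped those of 0 d. The change was 0.72 ± 0.11 on day 1 (adjusted p = 0.000108) and 0.27 ± 0.11 on day 4 (adjusted p = 0.0394), both under 2-fold, then 0.22 ± 0.11 on day 7 and -0.08 ± 0.11 on day 14. In DRG its signals were 0.10, 0.28 and 0.48 on day 0, 1.06, 1.24 and 1.38 on day 1, 2.18, 2.16 and 2.32 on day 4, 2.28, 2.18 and 2.22 on day 7, and 2.07, 2.15 and 2.18 on day 14. Every later DRG array lay above all 3 arrays of 0 d. Csf1 in DRG was up by 0.94 ± 0.11 on day 1 (adjusted p = 0.00011), just under 2-fold, and rose by 1.93 ± 0.11 on day 4 (3.82-fold, adjusted p = 1.5e-07), 1.94 ± 0.11 on day 7 and 1.85 ± 0.11 on day 14. Without the DRG 0 d array of replicate 3 the change on day 1 was 1.04, and without the 1 d array of replicate 1 it was 1.02, both past 2-fold. The other Csf1 probe gave 0.97, 1.96, 1.71 and 1.64 in DRG on the 4 days. In SN it gave 0.91, 0.39, 0.28 and -0.23, all under 2-fold. Its SN arrays of 14 d lay below those of 0 d (adjusted p = 0.0485). In the order of the daily means in DRG, 7, 4 and 14 d did not differ beyond their spread (adjusted p = 0.984 and 0.703 between neighbours), while 14 d stood 0.90 above 1 d (adjusted p = 0.000186).

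By its main probe, the receptor Csf1r rose in the nerve from 1 d and later and less in the ganglia. In SN its signals were 0.80, 0.35 and 0.63 on day 0, 1.98, 1.53 and 1.45 on day 1, 2.64, 2.64 and 2.85 on day 4, 2.40, 2.19 and 2.28 on day 7, and 1.97, 1.59 and 1.78 on day 14. All arrays after 0 d lay above those of 0 d. Csf1r in SN rose by 1.06 ± 0.15 on day 1, 2.12 ± 0.15 on day 4 (4.33-fold, adjusted p = 4.02e-07), 1.70 ± 0.15 on day 7 and 1.19 ± 0.15 on day 14. The change on day 1 fell to 0.94 without the SN 0 d array of replicate 2 and to 0.90 without the 1 d array of replicate 1, both under 2-fold. In DRG the signals were -0.47, -0.49 and -0.15 on day 0, -0.40, -0.52 and -0.24 on day 1, 0.76, 0.32 and 0.48 on day 4, 0.80, 0.81 and 0.80 on day 7, and 0.43, 0.63 and 0.71 on day 14. The DRG arrays of 1 d overlapped those of 0 d, and those of 4, 7 and 14 d lay above them. The change in DRG was -0.01 ± 0.13 on day 1 (adjusted p = 0.954), 0.89 ± 0.13 on day 4, 1.17 ± 0.13 on day 7 (2.26-fold, adjusted p = 6.83e-05) and 0.96 ± 0.13 on day 14, and that of 7 d was called. Without the DRG 0 d array of replicate 3 the changes on days 4 and 14 were 1.00 and 1.07, and without the 14 d array of replicate 1 that on day 14 was 1.04, all past 2-fold. The array has 2 other Csf1r probes, which were dim and gave other values in DRG, 1.35 and 1.90 on day 1, where the main probe was at -0.01. Of these, the first was well above background on 2 of the 3 arrays of DRG 0 d and the second on none, and neither had a measured level at SN 0 d, against which the first rose at least 7.73-fold on day 1 and at least 10.2-fold on day 4. Such a bound takes the dimmest signal well above background, or the probe's own where that is higher, as the level on day 0. On days 4, 7 and 14 in DRG the first dim probe gave 0.11, 0.81 and 0.97, none called. The second gave 0.73, 1.17 and 1.44 there, called on days 7 and 14. In SN the first gave 3.05, 3.45, 2.65 and 2.36 on days 1, 4, 7 and 14, and the second 1.46, 1.21, 1.24 and 0.60.

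Cd68 and Aif1, markers of phagocytes and of the macrophage lineage, rose in both tissues, in SN from 1 d on and in DRG later. Cd68 in SN had signals of 2.46, 2.78 and 2.63 on day 0, 4.43, 3.74 and 3.93 on day 1, 5.45, 5.51 and 5.76 on day 4, 5.22, 5.32 and 4.88 on day 7, and 4.36, 3.99 and 4.21 on day 14. Its arrays on day 0 lay below all others. It rose by 1.41 ± 0.18 on day 1, 2.95 ± 0.18 on day 4 (7.71-fold, adjusted p = 1.14e-07), 2.52 ± 0.18 on day 7 and 1.56 ± 0.18 on day 14, and its 14 d mean was 0.95 below that of 7 d (adjusted p = 0.00746). In DRG the signals of Cd68 were 0.97, 0.94 and 1.38 on day 0, 0.68, 0.86 and 1.08 on day 1, 2.11, 1.97 and 2.12 on day 4, 2.44, 2.67 and 2.44 on day 7, and 2.02, 1.92 and 2.32 on day 14. The 1 d arrays overlapped those of 0 d and the later ones did not. The change in DRG was -0.22 ± 0.15 on day 1, 0.97 ± 0.15 on day 4, 1.42 ± 0.15 on day 7 (2.68-fold, adjusted p = 4.08e-05) and 0.99 ± 0.15 on day 14, with the calls on days 4 and 14 missed by the fold alone (adjusted p = 0.000754 and 0.000375). Without the DRG 0 d array of replicate 3 they were 1.11 and 1.13, past 2-fold. So were the change on day 4 without the 4 d array of replicate 2 (1.02) and that on day 14 without the 14 d array of replicate 1 (1.02) or 2 (1.07). Aif1 in SN lay between 3.01 and 3.39 on day 0 and between 4.25 and 5.15 on the later days, and rose by 1.34 ± 0.15, 1.78 ± 0.15, 1.79 ± 0.15 and 1.26 ± 0.15 on days 1, 4, 7 and 14. In DRG its signals were 1.48, 1.81 and 2.46 on day 0 and 2.12, 2.05 and 2.08 on day 1, which overlapped, then 2.70, 2.93 and 3.17 on day 4, 3.41, 3.58 and 3.43 on day 7, and 3.13, 2.86 and 3.29 on day 14, all above 0 d. Aif1 in DRG rose by 1.01 ± 0.21 on day 4, 1.56 ± 0.21 on day 7 (2.94-fold, adjusted p = 0.000269) and 1.18 ± 0.21 on day 14. The call on day 4 was lost without the 0 d array of replicate 1 (0.79) or replicate 2 (0.96) or the 4 d array of replicate 3 (0.89), and that on day 14 without the 0 d array of replicate 1 (0.96).

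Itgam and Cd14 had their highest mean nerve levels on day 1, which did not differ beyond the spread from those on day 4 (differences of 0.34, adjusted p = 0.573, and 0.31, adjusted p = 0.164). Itgam in SN had signals of -1.99, -1.75 and -1.14 on day 0, 1.19, 0.85 and 1.49 on day 1, 0.40, 1.26 and 0.86 on day 4, 0.74, 0.05 and -0.21 on day 7, and 0.76, -1.24 and 0.18 on day 14. The arrays of 1, 4 and 7 d lay above those of 0 d, and 1 array of 14 d fell among them. It rose by 2.80 ± 0.45 on day 1 (6.98-fold, adjusted p = 0.000191), 2.47 ± 0.45 on day 4, 1.82 ± 0.45 on day 7 and 1.53 ± 0.45 on day 14. The last was 1.10 without the 14 d array of replicate 1, with an adjusted p of 0.0522. In DRG Itgam spread widely, with -4.37, -3.61 and -2.35 on day 0, -3.78, -2.47 and -2.18 on day 1, -2.14, -1.46 and -1.76 on day 4, -1.45, -2.06 and -2.20 on day 7, and -1.04, -2.83 and -1.64 on day 14. The calls in DRG lie at the edge of the threshold, with 1.65 ± 0.56 on day 4 (adjusted p = 0.042), 1.54 ± 0.56 on day 7 (adjusted p = 0.0659, not called) and 1.61 ± 0.56 on day 14 (adjusted p = 0.0394). The calls on days 4 and 14 were lost without the 0 d array of replicate 1 (1.19 and 1.15) or replicate 2 (1.57 and 1.52), without the 4 d array of replicate 2 (1.49) or 3 (1.64), or without the 14 d array of replicate 1 (1.21) or 3 (1.51). With quantile normalization neither was called (1.48 and 1.37). On day 7 the change was 2.09 without the 0 d array of replicate 3, with an adjusted p of 0.0214, and called. Cd14 in SN had signals of 2.02, 1.92 and 1.82 on day 0 and 4.11, 3.90 and 3.79 on day 1, and lay between 2.40 and 3.93 afterwards, with no array of a later day within the 0 d group. It rose by 2.01 ± 0.17 on day 1 (4.04-fold, adjusted p = 1.91e-06), 1.70 ± 0.17 on day 4 and 1.41 ± 0.17 on day 7, and stood at 0.71 ± 0.17 on day 14, where its other probe gave 1.06 and was called. Cd14 in DRG changed by less than 2-fold on every day, with a largest value of 0.83 ± 0.18 on day 7 (adjusted p = 0.00695).

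Fcgr3a had the largest rise of the members in the nerve, on day 7, and was not called on day 1 in either tissue. In SN its signals were -1.83, -1.40 and -0.23 on day 0, 0.16, -1.24 and -0.44 on day 1, 1.47, 1.57 and 2.33 on day 4, 2.55, 3.13 and 2.39 on day 7, and 2.13, 1.51 and 2.31 on day 14. The first 2 groups overlapped, and every array from 4 d on lay above both. The change in SN was 0.65 ± 0.44 on day 1 (adjusted p = 0.222), and Fcgr3a rose by 2.94 ± 0.44 on day 4, 3.84 ± 0.44 on day 7 (14.4-fold, adjusted p = 1.3e-05) and 3.14 ± 0.44 on day 14. Without the 0 d array of replicate 3 the change on day 1 was 1.11 (adjusted p = 0.0382) and called. In DRG its signals were -2.53, -1.73 and -0.55 on day 0, -1.89, -2.47 and -1.61 on day 1, -0.28, -0.36 and -0.01 on day 4, 0.79, 1.27 and 0.81 on day 7, and 0.47, 0.12 and 0.90 on day 14. In both tissues the daily means ran 7, 14 and 4 d from the top, while the lowest was 0 d in SN and 1 d in DRG, and the 0 and 1 d groups overlapped in each. Fcgr3a in DRG rose by 1.38 ± 0.40 on day 4 (adjusted p = 0.022), 2.56 ± 0.40 on day 7 (5.89-fold, adjusted p = 0.000827) and 2.10 ± 0.40 on day 14. The call on day 4 was lost without the 0 d array of replicate 1 (0.92) or replicate 2 (1.32) or the 4 d array of replicate 3 (1.28). The Fc gamma receptor genes are related in sequence, and cross-hybridization between their probes was not tested.

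Cd163 and Mrc1, proteins of resident macrophages, rose early in the nerve and, by their main probes, were back near the 0 d level by 14 d. Cd163 in SN had signals of -1.83, -2.53 and -1.91 on day 0, -0.02, 0.14 and 0.19 on day 1, -0.37, -0.08 and 0.11 on day 4, -0.97, -1.42 and -1.27 on day 7, and -1.68, -2.05 and -1.90 on day 14. Only the 14 d arrays overlapped those of 0 d. It rose by 2.19 ± 0.19 on day 1 (4.57-fold, adjusted p = 2.51e-06) and 1.97 ± 0.19 on day 4, and stood at 0.87 ± 0.19 on day 7, under 2-fold, and at 0.21 ± 0.19 on day 14 (adjusted p = 0.367). From 4 to 7 d the mean fell by 1.10 (adjusted p = 0.00312) and from 7 to 14 d by 0.66 (adjusted p = 0.0449), and for the latter step the other probe gave -0.38 (adjusted p = 0.168). Mrc1 in SN lay at 2.64, 2.38 and 2.55 on day 0, 3.22, 3.27 and 3.27 on day 1, and 3.76, 3.63 and 3.67 on day 4, and from 2.37 to 2.88 on days 7 and 14, again overlapping 0 d. It rose by 1.17 ± 0.12 on day 4 (2.24-fold, adjusted p = 4.43e-06). Its change on day 1 was 0.73 ± 0.12, under 2-fold, and that of its other probe was 1.16 and called. The other Mrc1 probe in SN still stood at 0.71 on day 7 (adjusted p = 0.00132), with no overlap with 0 d. On day 14 it stood at 0.43 (adjusted p = 0.0272), and both values were under 2-fold. In DRG neither gene was called on any day. Cd163 lay low there, from -4.60 to -3.88 on day 0, and its mean was 0.67 ± 0.16 above that level on day 4 (adjusted p = 0.00912) and 0.65 below it on day 7 (log2 change -0.65 ± 0.16, adjusted p = 0.0129), both under 2-fold. The other Cd163 probe gave 0.87 on day 4 and -0.23 on day 7 (adjusted p = 0.369). Mrc1 in DRG changed by -0.05 to 0.66, with adjusted p-values from 0.0721 to 0.924.

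Arg1 rose in both tissues, for a short time in the nerve and throughout in the ganglia. In SN its signals were -0.04, -0.07 and -0.87 on day 0, 2.71, 2.29 and 3.12 on day 1, 1.16, 1.35 and 1.60 on day 4, 0.31, 0.09 and 0.05 on day 7, and 0.37, 0.09 and 0.39 on day 14. Every later array lay above those of 0 d, by little on days 7 and 14. It rose by 3.03 ± 0.24 on day 1 (8.19-fold, adjusted p = 1.27e-06) and 1.70 ± 0.24 on day 4, and stood at 0.48 ± 0.24 on day 7 (adjusted p = 0.101) and 0.61 ± 0.24 on day 14 (adjusted p = 0.047), under 2-fold. The mean on day 4 was 1.34 below that on day 1 (adjusted p = 0.0013). In DRG the 0 d signals were -1.68, -1.70 and -1.70, and those that followed were 1.06, 0.94 and 1.35 on day 1, 2.43, 2.82 and 3.27 on day 4, 2.73, 2.75 and 2.58 on day 7, and 2.49, 2.11 and 2.17 on day 14. All 12 later arrays lay more than 2 units above the 0 d arrays. Arg1 in DRG rose by 2.80 ± 0.18 on day 1 (6.98-fold, adjusted p = 1.27e-06), 4.53 ± 0.18 on day 4 (23.1-fold, adjusted p = 8.37e-09), 4.38 ± 0.18 on day 7 and 3.95 ± 0.18 on day 14. The means of 4, 7 and 14 d did not differ beyond their spread from their neighbours, and that of 14 d was 1.14 above that of 1 d (adjusted p = 0.00123).

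Between successive days, the calls in SN at the later steps were falls, of 3 and then 4 of the 10 members. In DRG most of the calls were rises from 1 to 4 d. A call here rests on the adjusted p alone. In SN 5 members were higher and 2 lower on day 4 than on day 1, beside 17.2% and 20.7% of probes, the lower ones being Csf1 and Arg1. Among the higher ones, the call of Aif1 was lost without the 1 d array of replicate 2 (0.34) or 3 (0.41) or the 4 d array of replicate 2 (0.43) or 3 (0.37). From 4 to 7 d 3 members fell, Cd163, Mrc1 and Arg1, and limma called none higher, beside 8.24% of probes lower and 8.88% higher. From 7 to 14 d 4 fell, Cd68, Aif1, Cd14 and Cd163, and limma called none higher, beside 5.86% lower and 5.73% higher. Here the SN arrays of 7 d and of 14 d were scanned on different dates, so that scan and day cannot be told apart. The call of Cd14 from 7 to 14 d was lost without any 1 of the 7 d arrays or without the 14 d array of replicate 2, and that of Cd163 without any 1 of these 6 arrays but the 14 d array of replicate 1, with values of -0.87 to -0.59 and -0.76 to -0.53 over all 6. With the slide as a random block the calls of Cd68, Cd14 and Cd163 at this step (-0.95, -0.71 and -0.66) and those of Aif1 and Mrc1 from 1 to 4 d (0.46 and 0.43) were lost. From 4 to 7 d and from 7 to 14 d 0 members were higher at an unadjusted p under 0.05. These alternatives were not run for the SN steps of Csf1r and Cd68 from 1 to 4 d, of Mrc1 and Arg1 from 4 to 7 d and of Aif1 from 7 to 14 d, nor for the DRG steps other than those of Aif1 and Cd163 from 1 to 4 d. In DRG 7 members rose from 1 to 4 d by their main probes, all but Itgam, Cd14 and Mrc1, and limma called none lower, also at an unadjusted p, beside 9.9% higher and 10.1% lower. The 2 other Csf1r probes, both dim, were called lower at this step, with -1.24 (limma, adjusted p = 0.0287) and -1.17 (adjusted p = 0.0145). The call of Cd163 at this step was lost whichever 1 of the 6 arrays was left out (0.47 to 0.60), and that of Aif1 without the 4 d array of replicate 3 (0.73). From 4 to 7 d Cd163 alone fell, by 1.32 (adjusted p = 0.0093), beside 0.24% of probes lower and 0.406% higher, and limma called none higher, with 4 at an unadjusted p under 0.05. From 7 to 14 d limma called no member, beside 0.134% higher and 0.4% lower, and at an unadjusted p under 0.05 Cd163 was higher and Cd68 and Arg1 were lower.

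Whether a change differed between nerve and ganglia was tested by the interaction, the change in SN minus the change in DRG, called at an adjusted p under 0.05. On day 1 7 of the 10 members had the larger change in SN and limma called none with the larger change in DRG, also at an unadjusted p under 0.05, beside 15.9% and 19.7% of the 33806 probes tested. On day 4 6 members had the larger change in SN and 2 in DRG, beside 20.1% and 25.2% of 33805 probes. On day 7 the counts were 3 and 2, beside 17.6% and 20.4%, and on day 14 none and 2, beside 12.9% and 19.4%, with Cd68 higher at an unadjusted p of 0.0236. The 2 members with the larger change in DRG were Csf1 and Arg1 on all 3 of these days. The difference for Csf1 was -1.66 ± 0.15 on day 4 (adjusted p = 9.21e-09), -1.72 ± 0.15 on day 7 and -1.93 ± 0.15 on day 14, and that for Arg1 was -2.83 ± 0.31 (adjusted p = 1.85e-07), -3.90 ± 0.31 and -3.34 ± 0.31. With the slide as a fixed block they were -1.72, -1.96 and -2.14 for Csf1 and -2.59, -3.93 and -3.22 for Arg1. In these values 1 tissue of each day rests on a single array. On day 1 the difference was -0.23 ± 0.15 for Csf1 (adjusted p = 0.244) and 0.23 ± 0.31 for Arg1 (adjusted p = 0.599).

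Among the members with the larger change in SN, Cd68 differed by 1.63 ± 0.24 on day 1, 1.98 ± 0.24 on day 4 (adjusted p = 6.59e-07) and 1.09 ± 0.24 on day 7. Cd163 differed by 2.07 ± 0.25, 1.30 ± 0.25 and 1.51 ± 0.25 on these days, and its other probe by 1.72, 0.85 and 0.71, all called. Csf1r differed by 1.08 ± 0.20 on day 1, 1.23 ± 0.20 on day 4 and 0.52 ± 0.20 on day 7. Of its 2 dim probes, 1 gave 1.69, 3.34 and 1.84, all called, and the other -0.44, 0.48 and 0.07, none called. With the slide as a block, the main-probe calls of Cd68 and Cd163 held on all 3 days. That of Csf1r held on the first 2, its value on day 7 being 0.42 (adjusted p = 0.371). Cd14 differed by 1.29 ± 0.26 on day 1 and 0.89 ± 0.26 on day 4, and these calls held with the slide as a block too. The calls for Aif1 on days 1 and 4, for Itgam and Mrc1 on day 1 and for Fcgr3a on day 4 were lost with that block, at 0.70, 0.49, 2.21, 1.10 and 1.17, so that 4 members were called on day 1. In the main setting 3 other probes were called where the main probe was not. They were those of Mrc1 on day 4 (0.89, adjusted p = 0.028), Cd14 on day 7 (0.92, adjusted p = 0.0267) and, dim, Csf1r on day 14 (1.39, adjusted p = 0.0241).

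Several of the main-probe calls also rested on single arrays. Without the DRG 0 d array of replicate 3 the calls of Itgam (1.62) and Mrc1 (0.64) on day 1, of Aif1 (0.50) and Fcgr3a (1.03) on day 4 and of Csf1r (0.41) on day 7 were lost. Itgam on day 1 was also lost without the SN 0 d array of replicate 1 or 2, the DRG 1 d array of replicate 1 or the SN 1 d array of replicate 3 (1.62 to 2.63 over all 12 arrays left out in turn). Aif1 on day 4 was also lost without the SN 0 d array of replicate 1, the DRG 4 d array of replicate 1 or the SN 4 d array of replicate 3 (0.50 to 0.99). Mrc1 on day 1 was lost in 9 of the 12 cases, all but the SN 0 d array of replicate 1 and the DRG 0 d and 1 d arrays of replicate 2 (0.61 to 1.00). Fcgr3a on day 4 was lost in 9 of 12, all but the DRG 0 d array of replicate 1, the SN 0 d array of replicate 3 and the SN 4 d array of replicate 1 (1.03 to 2.02). Csf1r on day 7 was lost in 8 of 12, all but the DRG 0 d arrays of replicates 1 and 2, the SN 0 d array of replicate 1 and the SN 7 d array of replicate 2 (0.40 to 0.62). The calls of Csf1, Arg1, Cd68, Cd163 and Cd14, and those of Csf1r on days 1 and 4 and Aif1 on day 1, were kept whichever array was left out.

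**Figure D3:**
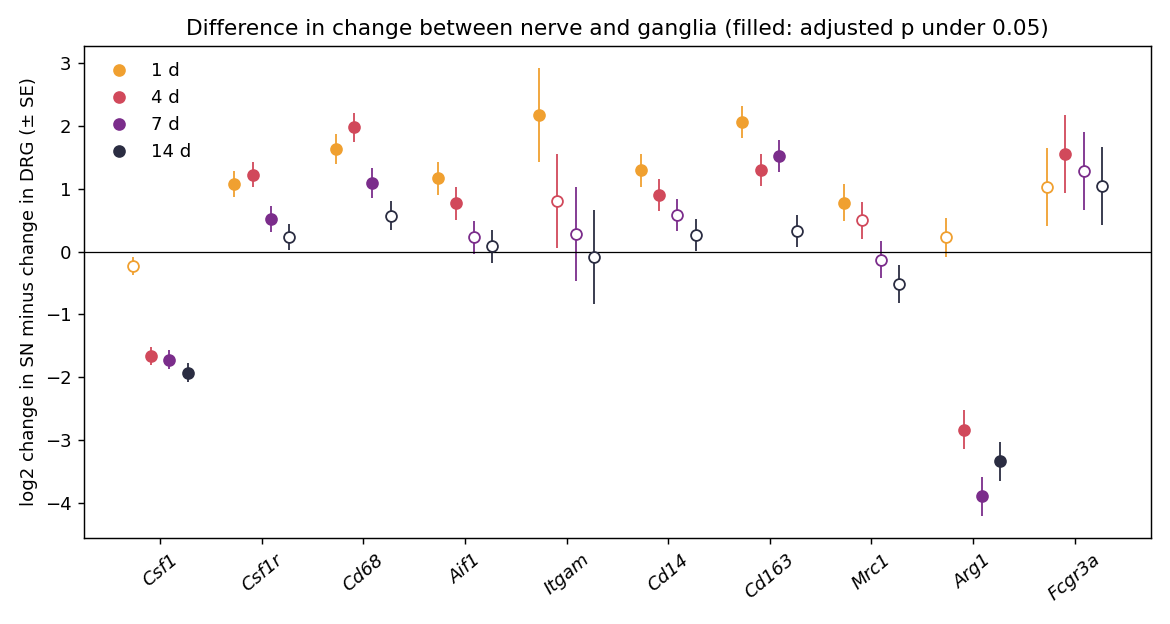
Log2 change in SN minus log2 change in DRG of each member on days 1, 4, 7 and 14 (colours), with bars of 1 SE from limma. Filled points had an adjusted p under 0.05. Csf1 and Arg1 lie below 0 from 4 d on, down to -1.93 and -3.90, and the called values of the other members lie above 0.

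Other genes of the same pathways were counted from lists chosen by function. Beside their counts on days 1, 4, 7 and 14, 18.6%, 15.9%, 18.1% and 14.3% of all probes tested were called higher in SN. In DRG these shares were 7.43%, 6.04%, 6.58% and 13%. Called lower were 3.43%, 6.78%, 6.81% and 5.46% in SN and 0.169%, 0.506%, 0.326% and 0.46% in DRG. A count near these shares, such as 1 gene of a short list, is no result about that list. Of 11 genes of CSF receptors, their ligands and myeloid transcription factors, 8 were on the array, 7 were tested in SN and 6 in DRG. All 7 rose in SN on day 1, 5 on day 4, 5 on day 7 and 3 on day 14, and in DRG 2, 2, 3 and 2 of 6 rose, with none lower. Csf3r, the receptor for granulocyte colony-stimulating factor, had the largest rise of the list on day 7 in both tissues, 2.93 ± 0.16 in SN and 1.72 ± 0.35 in DRG. The DRG value rests on 2 of the 3 arrays of 7 d, since 1 spot was left out, and on 0 d arrays of which 1 was well above background. With normexp and quantile normalization the values were 1.25 in SN and 0.51 in DRG, the latter under 2-fold. Of 24 tested macrophage and microglia genes outside the members, 11, 20, 20 and 18 rose in SN on days 1, 4, 7 and 14, and of 23 in DRG 0, 8, 15 and 11 rose, with none lower. Their median change in SN was 0.98, 1.93, 1.94 and 1.27 on these days, and in DRG it was -0.01, 0.91, 1.35 and 0.91. In DRG on day 1 limma called none, and 3 had an unadjusted p under 0.05. Cx3cr1, the fractalkine receptor, rose most in SN on day 7, by 3.78 ± 0.20 (2.48 with normexp and quantile normalization), and Cd74, the invariant chain of class II antigen presentation, rose most in DRG, by 2.92 ± 0.18.

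The Fc gamma receptors and their adaptor rose as a group, 4 of 4 in SN on all 4 days and 0, 3, 4 and 4 of 4 in DRG, with a median change of 0.03 in DRG on day 1, where limma called none and 1 had an unadjusted p under 0.05. On day 7 the largest rise was 2.29 ± 0.18 in SN for Fcgr2a, which the files name Fcgr3, and 1.79 ± 0.20 in DRG for the inhibitory receptor Fcgr2b. Of 5 genes that act with Cd14 in sensing bacterial products, 2, 3, 3 and 2 rose in SN and 0, 1, 1 and 0 in DRG, led on day 7 by Lbp, the lipopolysaccharide-binding protein, with 3.80 ± 0.22 in SN (2.78 with normexp and quantile normalization) and by Tlr2, a receptor for bacterial lipopeptides, with 1.36 ± 0.28 in DRG. In DRG, where limma called none on days 1 and 14, 1 and 2 of them had an unadjusted p under 0.05. Of 6 scavenger receptor and heme genes, 2 rose and 2 fell in SN on day 7, among them Hmox1, heme oxygenase, which rose by 1.84 ± 0.23, and Lyve1, a hyaluronan receptor of lymphatic vessels and some resident macrophages, which fell by 1.21 (SE 0.17), a call lost without the SN 0 d array of replicate 1 (-0.998). In DRG 1 of the 6 rose on day 7, the macrophage lectin Clec10a (Mgl1 in the files), by 1.22 ± 0.20.

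Of 7 genes of arginine and polyamine metabolism besides Arg1, limma called none in DRG on any day, with median changes from -0.18 to 0.07 and 1, 2, 0 and 1 at an unadjusted p under 0.05. In SN 2, 2, 2 and 1 were called higher and 0, 1, 1 and 3 lower on days 1, 4, 7 and 14, and on day 1 6 had an unadjusted p under 0.05 in either direction. Nos2, the inducible nitric oxide synthase, was not well above background at SN 0 d and was at least 1.01-fold higher on day 7, from a measured mean of -8.09 to -6.39 (adjusted p = 0.000131). Its call was lost with quantile normalization, with the deposited table and with normexp and quantile normalization, where the change was 0.16. Slc7a2, a transporter of arginine, fell by 1.29 (SE 0.24).

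Markers of other cells moved on the same days, and the shares of all probes given with the lists stand beside their counts too. Neutrophil markers were higher in SN on day 1, 6 of 7 tested, beside the 1 d rises of Csf1, Itgam, Cd14, Cd163 and Arg1. These members had their highest SN mean on that day. The summed signal of the neutrophil markers on the linear scale was 7.38 to 14.4 over the 3 arrays against 0.346 to 0.607 on day 0. Their summed signal in SN was 0.673 to 0.999 on days 4 and 7, also above 0 d. On day 4 3 were called higher and 1, Mpo, lower (-1.01 ± 0.33), and on days 7 and 14 3 were called higher. In DRG they were called on day 7 in 1 and on day 14 in 3 of 7. Limma called none in DRG on days 1 and 4, with 1 and 0 at an unadjusted p under 0.05. T and NK cell markers rose in SN, 5 of 7 on day 1 and 7 of 7 from 4 d on, with a summed signal of 1.32 to 1.58 on day 0 and 6.70 to 8.53 on day 7, beside the rise of Fcgr3a. In DRG 2, 1, 5 and 5 of 7 rose, with a summed signal of 0.973 to 1.56 on day 0 and 1.44 to 1.70 on day 7. Limma called no B cell marker against 0 d on any later day in either tissue. At most 1 per comparison had an unadjusted p under 0.05, and 1 of the 3 on the array was well above background on all SN arrays of 0 d. The part of these cells in the changes of the members was not tested.

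Skeletal muscle markers fell in SN on days 4 and 7, 7 of 7, with a summed signal of 103 to 1418 on day 0, 6.55 to 23.9 on day 4 and 5.59 to 68.2 on day 7. Mast cell markers fell in SN, 1, 5, 5 and 4 of 6 on days 1, 4, 7 and 14, and Schwann cell markers 1, 3, 3 and 3 of 6. The macrophage markers themselves had a summed signal in SN of 26.1 to 28.3 on day 0 and 103 to 128 on day 4, and in DRG of 7.56 to 11.9 on day 0 and 21.1 to 23.7 on day 7. Neuron markers, 7 of 7 lower in SN than in DRG on day 0, and Schwann cell markers, present in both tissues, match the labelled tissues. In DRG limma called none of the 7 neuron markers on any day, with median changes of -0.29 to -0.02, and 1, 4, 5 and 5 had an unadjusted p under 0.05. Limma called none of the 5 fibroblast markers in either tissue, with median changes of -0.72 to -0.43 in SN and -0.19 to 0.17 in DRG, and 5, 4, 3 and 5 in SN and 1, 3, 3 and 3 in DRG had an unadjusted p under 0.05. The part of lost muscle and mast cell signal in the values of the members was not tested.

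**Figure D4:**
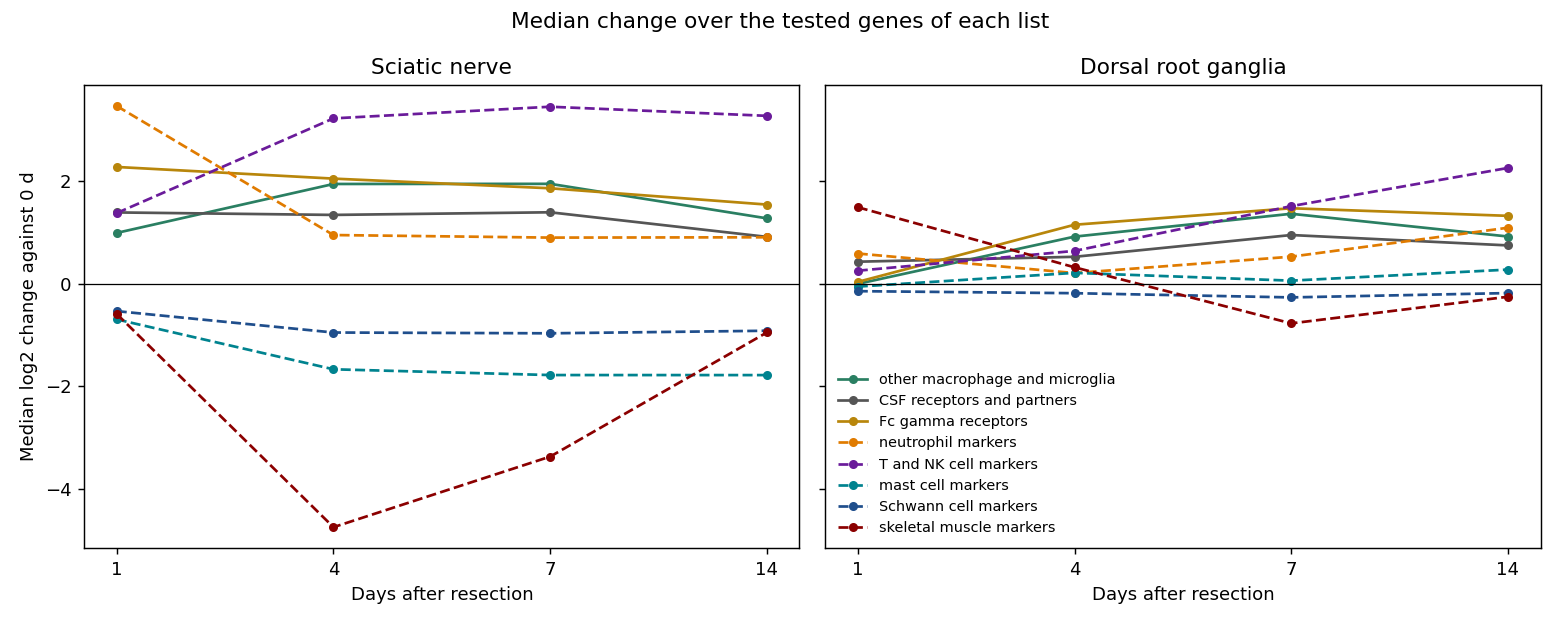
Median log2 change against 0 d over the tested genes of 8 lists on days 1, 4, 7 and 14 in SN (left) and DRG (right), with the days spaced evenly. Solid lines are genes of macrophages, CSF receptors and Fc receptors, and dashed lines are markers of other cells. In SN neutrophil markers stand highest on day 1 with 3.45, T and NK cell markers stand at 3.21 to 3.43 from 4 d on, and skeletal muscle markers reach -4.73 on day 4.

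The genes whose signal ran most like that of 3 members over the 15 arrays of a tissue were listed, 1 probe per gene well above background on all 15 arrays. The correlations share the arrays and the 0 d group and are given as a description. For Csf1r in DRG they were Cyp2d5 (Pearson r = 0.988), Fes (0.985) and Irf5 (0.975). For Cd68 they were Tnfaip8l2 (0.992), Ninj1 (0.992) and Tbxas1 (0.991) in SN, and Cyp2d5 (0.988), Lyz2 (0.987), the lysozyme of phagocytes, and C1qa (0.984), a chain of complement C1q, in DRG. For Csf1 they were Ddx56 (0.957), Ece1 (0.952) and Tcp1 (0.943) in SN, and Ptprh (0.991), Tslp (0.988) and Vip (0.988), a neuropeptide of injured sensory neurons, in DRG. Cyp2d5 was on the lists of both Csf1r and Cd68 in DRG.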

How the data were processed

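The data are 30 single-colour Agilent rat arrays (design 014879, annotation build rn4), 3 for each of 5 days in SN and in DRG. The intensity values come from the scanner files the authors deposited, read with Feature Extraction 10.5.1.1, which subtracted background and detrended within each array, with no normalization between arrays. The authors also deposited a table of log2 values, used here as an alternative. The flags for outlier spots and for spots well above background are those of the deposited files.

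Here outlier spots were dropped, the log2 values of repeated spots were averaged, and each array's 75th percentile was subtracted. A probe entered the tests of a tissue if it exceeded background on every array of at least 1 day there, which 35163 probes did for SN, 34977 for DRG and 33806 for both tissues. Changes were tested with limma (version 3.58.1, R 4.3.3) on the 15 arrays of a tissue, and differences between tissues on all 30. Adjusted p-values are Benjamini-Hochberg over all probes tested. The steps were tested on simulated data, where 75% of changes of 1.5 on the log2 scale were recovered for SN at 7 d and 87% for DRG at 7 d. The simulated noise was independent for each probe and array and held no scan or slide effect, unlike what these arrays may hold. The 4 comparisons of a tissue share the 0 d arrays. The arrays carry no read depth, and their number limits the precision.

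Members and lists were chosen with earlier results of these data known. All members are named, and of the other lists, for each tissue, the called genes with the largest rise and fall at 7 d. Names follow the RefSeq table (GRCr8, names and promoters only), which held 13088 of the 17504 accessions. Alternatives were quantile and normexp normalization, other filters and percentiles, the deposited table, the methods' t-test, the mean over probes, blocks and leaving out each array. Whether equal replicate numbers pair arrays of different days was checked within each tissue, from their deviations from the group means. The correlations ran from -0.269 to 0.217 in SN and from -0.358 to 0.332 in DRG, and no pairing was used. Whether an SN and a DRG array of the same day come from the same rats was not checked. The tests between tissues took them as independent. The genes most like Csf1r in SN are not reported here.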

Additional observations from a re-analysis of the deposited data

Results flagged for a closer look

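The change after resection differed between SN and DRG for 22 pairs of a member and a day, each flagged because the interaction in limma had an adjusted p under 0.05 over all probes tested. Values are the log2 change in SN minus that in DRG. At 1 d the difference was 1.08 for Csf1r, 1.63 for Cd68, 1.17 for Aif1, 2.17 for Itgam, 1.29 for Cd14, 2.07 for Cd163 and 0.78 for Mrc1. At 4 d it was -1.66 for Csf1, 1.23 for Csf1r, 1.98 for Cd68, 0.77 for Aif1, 0.89 for Cd14, 1.30 for Cd163, -2.83 for Arg1 and 1.56 for Fcgr3a. At 7 d it was -1.72 for Csf1, 0.52 for Csf1r, 1.09 for Cd68, 1.51 for Cd163 and -3.90 for Arg1. At 14 d it was -1.93 for Csf1 and -3.34 for Arg1. Groups of 3 arrays are too small for a test of single outlying arrays.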

How the results depend on the processing

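With 3 arrays per group, members near a threshold moved across it. The count of members called in DRG at 1 d, 1 in the main setting, was 2 with the mean over the probes of a gene and 3 with no fold threshold, and 1 to 2 when leaving out an array. In DRG at 4 d, 5 in the main setting, it was 3 with quantile normalization, the authors' deposited table, the methods' t-test without adjustment and only the arrays compared, 2 with that t-test adjusted, 9 with no fold threshold, and 2 to 7 when leaving out an array. In DRG at 14 d, also 5, it was 2 with the adjusted t-test and 3 to 7 when leaving out an array. With the slide as a fixed block, an alternative chosen after the data were seen, 1 tissue of each day rests on a single array. The count with a different change in SN and DRG at 1 d, 7 in the main setting, was then lower. All other counts of members stayed within 1.5 times the main count. With the replicate number as a block the counts were 7, 9, 6 and 5 in SN and 1, 4, 6 and 4 in DRG. The calls of Itgam in DRG at 4 d (1.65, adjusted p = 0.0549) and 14 d (1.61, adjusted p = 0.0501) were lost under this block, as were 2 steps between days, Aif1, SN, 4 d against 1 d (0.45, adjusted p = 0.0517) and Cd163, SN, 14 d against 7 d (-0.66, adjusted p = 0.0507). No other call of a member recomputed under it changed. Of 15 arrays each, 5 in SN and 0 in DRG correlated best with arrays of their own number.

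The sign changed in 50 of the values, of which 49 were called in neither setting. The exception was Csf1r in DRG at 1 d, at 1.08 with the mean over its probes, of which 2 are dim. With quantile normalization Csf1 in SN at 14 d was 0.0283, Cd163 in DRG at 1 d -0.244, and the difference between SN and DRG 0.0116 for Mrc1 at 7 d and 0.0762 for Itgam at 14 d. The deposited table gave 0.0294, -0.247, 0.0113 and 0.0724 for the same values. With normexp and quantile normalization Csf1 in SN at 14 d was 0.0587, Csf1r and Cd163 in DRG at 1 d were 0.0108 and -0.101, and the Itgam difference at 14 d was 0.246. The mean over probes gave 0.0337 for Cd163 in DRG at 14 d and 0.0712 for the Mrc1 difference at 7 d. With the slide as a fixed block the differences were -0.0942 (4 d) and -1.10 (7 d) for Itgam, -0.15 (7 d) and -0.25 (14 d) for Aif1 and -0.11 (14 d) for Cd14. The Itgam difference at 7 d was -0.0224 with slides as random blocks and -0.17 with the scan as a block or within the second scan.

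When leaving out an array, values that changed sign ranged as follows. In SN at 14 d Cd163 ran from -0.0099 to 0.34 and Mrc1 from -0.0283 to 0.23. In DRG at 1 d Csf1r ran from -0.0892 to 0.0958, Aif1 from -0.0554 to 0.44, Cd163 from -0.0499 to 0.31, Mrc1 from -0.27 to 0.12 and Fcgr3a from -0.85 to 0.14. In DRG Slc7a2 at 7 d ran from -0.30 to 0.17, Nos2 at 7 d from -0.0184 to 0.74 and Cd163 at 14 d from -0.28 to 0.0717. The difference between SN and DRG ran from -0.0436 to 0.44 for Arg1 at 1 d, at 7 d from -0.0435 to 0.45 for Aif1, -0.27 to 0.74 for Itgam and -0.27 to 0.0066 for Mrc1, and at 14 d from -0.19 to 0.30 for Aif1 and -0.63 to 0.49 for Itgam. Fcgr3a at 0 d, SN against DRG, ran from -0.0156 to 0.97. Apart from the effects of fewer probes or arrays, the cause was not tested.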
